A study of Gallus gallus with 9 samples.

Results

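Liver RNA of chickens aged 42 weeks was compared with that of chickens aged 5 weeks, over all protein-coding genes and long non-coding RNAs (lncRNAs) in the deposited tables. The members were chosen by age from the labels and are 6 of the 9 libraries of the study, 3 at each of these ages. The labels place the 5-week birds in a stage of rapid growth and the 42-week birds in an adult and aged stage. The other 3 libraries, from embryonic day 13, entered the estimate of spread and are given as background levels. All birds were Gallus gallus with no treatment named. The sources used here do not give breed, flock, sex, feeding or laying state. The labels call the libraries biological replicates and do not say whether a library held 1 bird or a pool.

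The liver makes most of the proteins of blood plasma, among them albumin, clotting factors and the apolipoproteins that carry lipid, and in birds it is also the main site of fatty acid synthesis. In the hen in lay, estrogen turns on hepatic synthesis of the yolk precursors, vitellogenin and a very low density lipoprotein, which reach the ovary through the blood. These statements are background only. The mRNA table carries Ensembl identifiers and the lncRNA table transcript-unit numbers, and 0 of 13949 and 0 of 4127 matched the reference table of gene symbols. No role can therefore be given to a gene below, and the tissue could not be checked against hepatocyte markers.

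Levels are FPKM, that is fragments per kilobase of transcript relative to the mapped fragments of the library, so they are scaled for length as well as for library size. Differences are on the log2(FPKM + 1) scale, 42 weeks minus 5 weeks, which understates the change of low transcripts. A feature was called when the Benjamini-Hochberg adjusted p of limma was under 0.05 and the absolute log2 difference was at least 1. The depth of the libraries is unknown. In bulk tissue, fewer cells of a type and less RNA per cell cannot be told apart.

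One library stood apart from the others of its age. The third 42-week library was at least 2-fold above both other 42-week libraries, while these lay within 1.5-fold of each other on the log2(FPKM + 1) scale, for 453 of 11512 tested genes, and at least 2-fold below both for 109. For the other 8 libraries of the study the same counts were 11 to 44 and 17 to 84. Its median log2 value was 2.86, against 2.41 and 2.59 in the others of its age and 2.68 to 2.87 at 5 weeks. Across genes, its Pearson's r with the other 42-week libraries was 0.939 and 0.947, while those correlated at 0.977. Among lncRNAs it stood apart in the same way for 25 features above and 17 below, against 1 to 8 and 2 to 9 in the other libraries. Values are therefore given per library, and results with and without this library.

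Most genes moved little between 5 and 42 weeks. From the 5th to the 95th percentile, the log2 differences of tested mRNAs ran from -1.15 to 0.96. Of 11512 tested mRNAs, 497 were called higher at 42 weeks (4.32%) and 806 lower (7%), together 11.3%. The median size of a called change was 1.42 for rises and 1.29 for falls. The 2 directions differed in their extremes. A log2 difference of at least 4 was reached by 19 rises and 8 falls, one of at least 5 by 11 and 2, and one of at least 6 by 9 and 1. These counts by size were not repeated without the third 42-week library or after scaling. Without that library the 2 falls of at least 5 were -7.22 and -6.14. A further 23 rises and 46 falls were at least 1 in size without reaching the adjusted p, and 2398 genes had an adjusted p under 0.05 with a smaller difference. By the adjusted p alone 3701 genes (32.1%) passed. Without the third 42-week library 493 genes were higher and 1305 lower. Leaving out the first 42-week library instead gave 607 and 604, so the excess of falls was gone, and leaving out the second gave 457 and 725. All libraries of an age lay above all of the other for 1558 genes at 42 weeks (13.5%) and for 3211 genes at 5 weeks (27.9%).

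**Figure D1:**
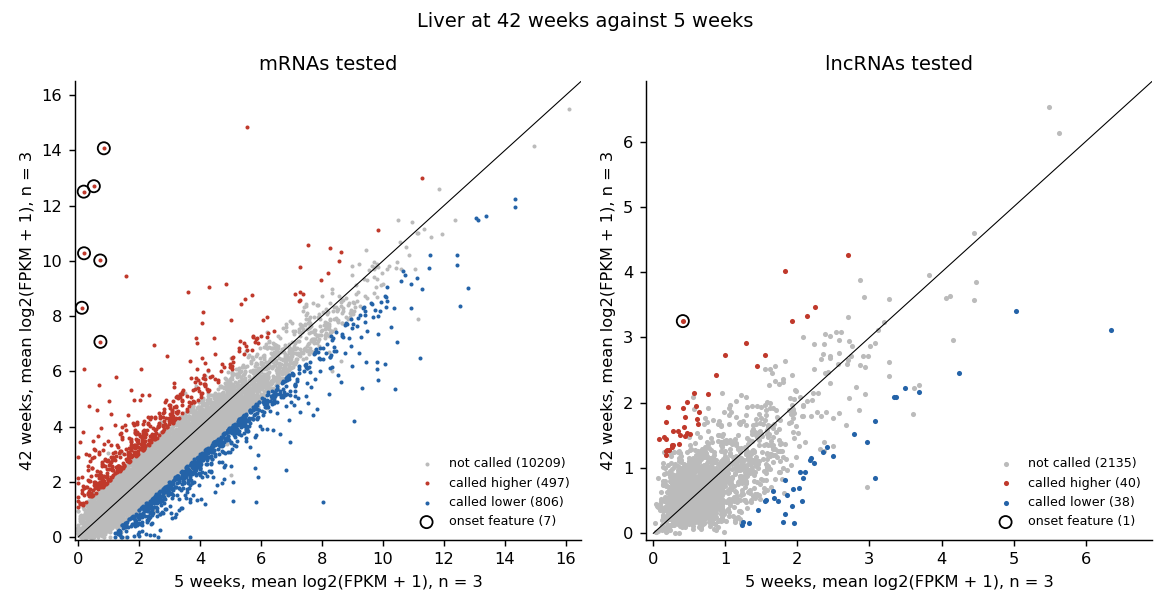
Mean log2(FPKM + 1) of each tested feature at 42 weeks (y axis) against 5 weeks (x axis), with 3 libraries per age, for mRNAs (left) and lncRNAs (right). Called rises (497 and 40) are red, called falls (806 and 38) blue, and black rings mark the 7 mRNAs and 1 lncRNA that went from very low to high FPKM, which sit at the left edge far above the line of equality.

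The plainest feature of the adult liver was the onset of a few transcripts at very high levels. From a 5-week mean under 1 FPKM, 7 genes rose to a 42-week mean of 100 FPKM or more, and 5 of these to 1000 FPKM or more. No listed gene went the other way from at least 100 to under 1 FPKM. These numbers are levels and carry no test of their own. All 7 genes were called higher, against 4.32% of all tested genes, but the call used the same libraries that picked them. The table keeps genes that are above 0 in 5 or more of the 9 libraries. A gene at 0 in every embryonic library is therefore listed only if it is above 0 in at least 2 of the 5-week libraries. Transcripts at 0 before 42 weeks are not part of the count, nor are losses of transcripts above 0 at 5 weeks alone.

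With the offset of 1 FPKM, ENSGALG00000001863 came first among the rises. At 5 weeks its libraries had 0.393, 1.04 and 1.029 FPKM, and the adult ones had 27207, 25004 and 7630.1 FPKM. Among all listed mRNAs it ranked 3, 3 and 4 in abundance in these adult libraries. Its log2 difference was 13.24 ± 0.40 (SE; limma adjusted p = 2.8e-08). All embryonic libraries were at 0 for this gene, so they added no spread to the pooled SE. With the 5-week and 42-week libraries alone in the fit, the limma adjusted p was 2.0e-06.

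ENSGALG00000042672 was second, with 0, 0.163 and 0.256 FPKM at 5 weeks and 9245, 8346 and 2566 FPKM at 42 weeks. The groups did not come near each other in either gene, and in both the third 42-week library was the lowest of its age, at 0.292 of the mean of the other two. The log2 difference of the second gene was 12.33 ± 0.39 (limma adjusted p = 2.8e-08). Without the third 42-week library the differences were 13.83 and 12.92. With an offset of 0.1 FPKM in place of 1 the order was reversed, at 14.3 for the first gene and 14.75 for the second.

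The remaining onset genes are given by their place in the order of rises. The gene in place 3 had 0.183, 0.636 and 0.506 FPKM at 5 weeks and 12771.5, 10945.5 and 2134 FPKM at 42 weeks. Place 4 was held by a gene with 0, 0.217 and 0.227 FPKM at 5 weeks and 2062, 1485 and 622 FPKM at 42 weeks. In both, the third library was again the lowest adult value. The gene in place 6, with 0.444, 0.645 and 0.901 FPKM at 5 weeks, had 2289, 1976 and 244 FPKM at 42 weeks. With these the 5 genes above 1000 FPKM are complete, and their level in the third library was 0.114 to 0.351 of the mean of the other two.

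The other 2 onset genes did not share that order of libraries. The gene in place 7 had 0.103, 0 and 0.166 FPKM at 5 weeks and 162, 271 and 709 FPKM at 42 weeks, so the third library was the highest, at 3.28 times the mean of the others. Place 9 was held by a gene with 0.441, 0.817 and 0.746 FPKM at 5 weeks and 92.7, 181 and 142 FPKM at 42 weeks, where the third library was at 1.04 times that mean. Their log2 differences were 8.18 ± 0.40 (limma adjusted p = 9.7e-07) and 6.34 ± 0.25 (limma adjusted p = 1.4e-07). Of the 7 onset genes, 5 were lowest in the third 42-week library and 6 were lowest in the first 5-week library. In the embryo 5 of the 7 were listed at 0 in all 3 libraries. Among the other 2, the gene in place 6 was higher in the embryo than at 5 weeks, with 1.87, 3.55 and 3.19 FPKM. For the 5 genes listed at 0, the embryonic values added no spread, so the pooled SEs and adjusted p rest partly on them. With the 5-week and 42-week libraries alone in the fit, the limma adjusted p of the gene in place 7 was 2.2e-05.

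**Figure D2:**
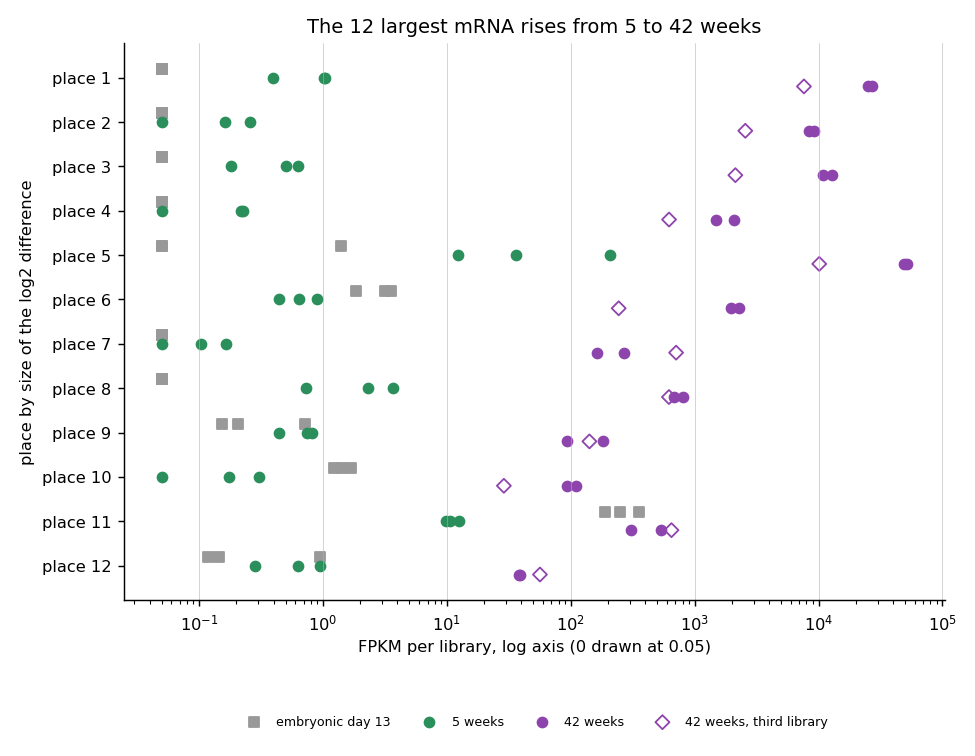
FPKM in each library (log axis, 0 drawn at 0.05) for the 12 called mRNAs with the largest log2 rise among those with libraries that do not overlap and a mean of at least 10 FPKM at 42 weeks, ordered from place 1 down. Grey squares are embryonic libraries, green circles 5 weeks, filled purple circles the first and second 42-week libraries and open diamonds the third. The adult points lie to the right of the 5-week points in all 12 rows, and in the first 6 rows the diamond lies to the left of the filled purple circles.

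Of the summed FPKM of the adult libraries, the 7 onset genes together took 13.4%, 11.3% and 2.98%. At 5 weeks they took 2.92e-04% to 7.18e-04%. The onset genes alone did not account for the weight of the rises. The called rises other than the onset genes went from 1.90% ± 0.18 of the summed FPKM at 5 weeks to 22.4%, 20.4% and 9.499% in the adult libraries (SD, n = 3 at 5 weeks). In the first and second of these, 12.9 and 11.4 percentage points belonged to the gene in place 5, and in the third 2.15. This gene was already present at 5 weeks, with 12.3, 36.2 and 207 FPKM, and had 52139, 48675 and 10141 FPKM at 42 weeks. Its SD at 5 weeks was 106 FPKM around a mean of 85.3 FPKM, and its log2 difference was 9.30 ± 0.89 (limma adjusted p = 8.8e-05). The 5-week SD of an onset gene was at most 0.371 FPKM, but these genes were picked for a 5-week mean under 1 FPKM. These SDs therefore do not show which gene was steadier. As the lists were called on these libraries, the direction of such changes in share is given by the calls.

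The set of most abundant transcripts changed between the ages, and onset genes were the smaller part of those that entered it. Of the 20 mRNAs with the highest mean, 11 were shared between the ages. Of the 9 that were new at 42 weeks, 5 were called higher and 3 were onset genes, and 7 of the 9 that they replaced were called lower. A mean of at least 1000 FPKM was kept at both ages by 25 genes, of which 1 was called higher and 8 lower. It was lost by 28 genes, of which 21 were called lower, with a median of 558 FPKM left at 42 weeks. It was gained by 14 genes, of which 11 were called higher, and 5 of the 14 came from under 10 FPKM. Genes that entered or left these sets were picked by their change in the libraries that gave the calls. Their calls are therefore no separate support. Of all tested mRNAs 4.32% were called higher and 7% lower. Of the 47 averaging 1000 FPKM or more over both ages, 53.2% were called in either direction. Whether the signal became more concentrated could not be decided. The 20 most abundant mRNAs of a library took 43.7% ± 1.4 of the signal at 5 weeks and 45.7% ± 5.3 in the adult (SD, n = 3 each, exact two-sided permutation p = 0.6). With the onset genes left out, which were picked for a high adult level, the shares were 43.7% ± 1.4 and 42.5% ± 2.8 (SD, n = 3 each, exact two-sided permutation p = 0.6). With 3 against 3 libraries this p cannot go below 0.1, so the test could not have shown a change.

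Onset was also seen at lower levels. From under 1 FPKM at 5 weeks, 18 genes reached at least 10 FPKM, the 7 above included. All 18 were called higher, again on the libraries that picked them. The other 11 had means of 10.3 to 78.0 FPKM at 42 weeks. Their level in the third library ranged from 0.0487 to 1.46 of the mean of the first and second, and that of the 7 higher ones from 0.114 to 3.28. Most of the 11 were under 10 FPKM in the third library, down to 1.03 FPKM. A gene with 51.7, 3.53 and 7.73 FPKM at 42 weeks reached a mean of 10 FPKM through the first library alone. The count at 10 FPKM was not repeated without the third library. Of the 18 genes, 12 were also under 1 FPKM in the embryo and 2 had at least 10 FPKM there. In the reverse direction a single listed gene went from at least 10 FPKM to under 1. It had 9.83, 20.6 and 7.75 FPKM at 5 weeks, was listed at 0 in all 3 adult libraries and was called lower. An exact 0 in this table stands for a value below 0.1 FPKM.

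In the other rises in places 8, 11 and 12 the third adult library was near the others or the highest of them. In place 8 a gene went from 0.736, 2.33 and 3.65 FPKM to 813, 677 and 621 FPKM, a log2 difference of 7.87 ± 0.29 (limma adjusted p = 8.9e-08). It was listed at 0 in all embryonic libraries, which therefore added no spread to its SE. In place 11 a gene went from 10.7, 9.91 and 12.6 FPKM to 308, 532 and 651 FPKM, and its embryonic mean of 264 ± 85.0 FPKM (SD, n = 3) was close to the adult range. The gene in place 12 went from 0.281, 0.947 and 0.633 FPKM to 39.0, 38.3 and 56.5 FPKM.

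The falls were smaller than the largest rises and reached transcripts that had been abundant. ENSGALG00000007636 had 384, 96.9 and 489 FPKM at 5 weeks and 0.334, 1.35 and 3.62 FPKM at 42 weeks. It had the largest fall, and its ages were separated by more than their spread, with a log2 difference of -6.76 ± 0.57 (limma adjusted p = 4.7e-05). ENSGALG00000007109 had 1791, 989 and 1354 FPKM at 5 weeks and 11.96, 27.02 and 191 FPKM at 42 weeks. In it the third adult library was 9.82 times the mean of the other two, and its log2 difference of -5.02 ± 0.73 (limma adjusted p = 0.00096) became -6.14 without that library.

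The next falls include transcripts of far higher level. The fall in place 4 had 2996, 1465 and 2990.4 FPKM at 5 weeks and 56.2, 78.2 and 160.3 FPKM at 42 weeks. Its embryonic level was higher still, at 4388 ± 496 FPKM (SD, n = 3), as was that of the fall in place 3, which went from 723, 307 and 672 FPKM to 9.42, 17.0 and 32.9 FPKM after 1031 ± 85.4 FPKM in the embryo. The fall in place 8 had 6738, 4683 and 6578 FPKM at 5 weeks and 119.7, 234 and 1282 FPKM at 42 weeks. The third adult library was the highest in all 3. The fall in place 6 rested most on the first and second libraries, with 0.186 and 1.34 FPKM against 55.5 in the third, and 213, 83.8 and 78.2 FPKM at 5 weeks (log2 difference -4.39 ± 1.096, limma adjusted p = 0.012).

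One abundant fall went against that order. The fall in place 11 had 11015, 5286 and 6272 FPKM at 5 weeks and 930.2, 988 and 149 FPKM at 42 weeks, so here the third library was the lowest. Its embryonic mean was 147 ± 27.7 FPKM (SD, n = 3).

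**Figure D3:**
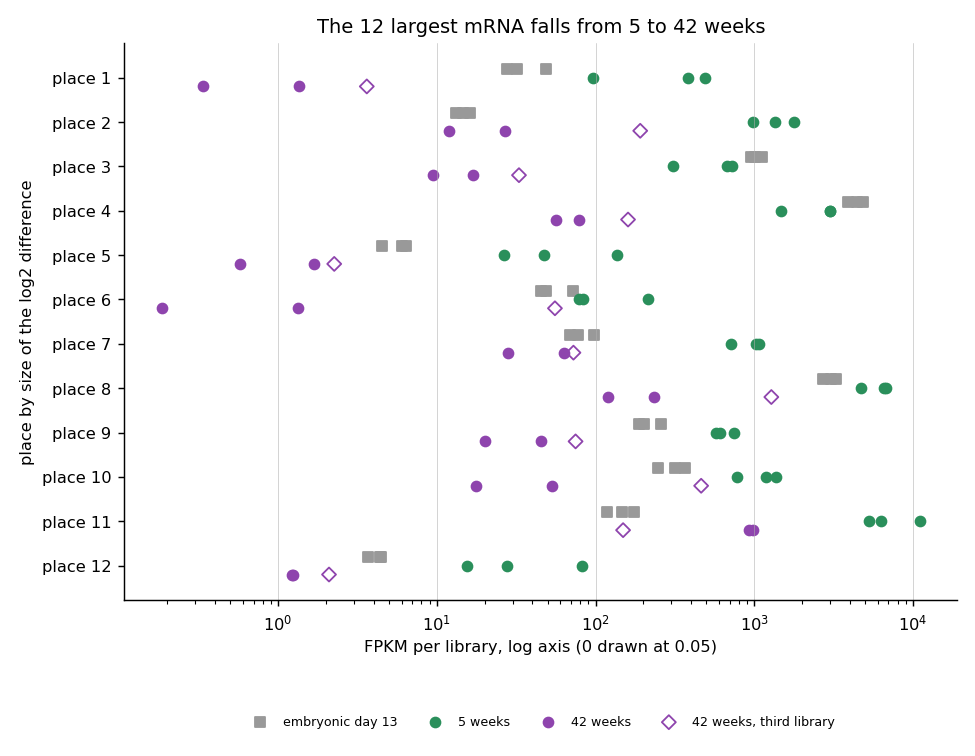
FPKM in each library (log axis, 0 drawn at 0.05) for the 12 called mRNAs with the largest log2 fall among those with libraries that do not overlap and a mean of at least 10 FPKM at 5 weeks. Symbols are as for the rises. The third 42-week library (open diamond) is the highest of the adult values in 11 of the 12 rows, place 11 being the exception, and in all rows it stays below the 5-week points.

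The share of genes called grew with level, and on the deposited scale falls outnumbered rises in each class from 1 FPKM up. The offset of 1 FPKM holds down differences at low level, so the call rule itself favours higher levels. The classes were not counted again with a smaller offset. Of the 47 genes averaging 1000 FPKM or more over both ages, 6 rose and 19 fell (53.2% called). Among the 401 genes from 100 to 1000 FPKM 38 were higher and 98 lower, among the 3500 from 10 to 100 FPKM 165 and 346, and among the 6452 from 1 to 10 FPKM 278 and 333. The median log2 difference fell with level as well, from -0.12 at 1 to 10 FPKM to -0.88 above 1000 FPKM. Without the third 42-week library the excess of falls was larger. It then gave 6 rises and 24 falls above 1000 FPKM, and 40 and 126 from 100 to 1000 FPKM. From 10 to 100 FPKM there were 175 and 580, and from 1 to 10 FPKM 259 and 561. The medians of these classes then ran from -0.25 at 1 to 10 FPKM to -1.08 above 1000 FPKM.

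The balance at lower levels depended on how the libraries were scaled to each other. The summed FPKM of the mRNA table was 512028 to 535744 at 5 weeks but 402779, 428109 and 471062 in the adult libraries. Over all tested genes the median difference was -0.17 (log2). With every library shifted to the same median, 378 genes from 1 to 10 FPKM were higher and 222 lower, so that the majority changed sides there. From 10 to 100 FPKM falls remained more frequent under median scaling (207 rises, 244 falls) but not under quantile normalization (240 and 191) or with the summed FPKM of all libraries set equal (265 and 178). From 100 to 1000 FPKM these 3 scalings gave 40 and 82, 54 and 56, and 52 and 66. Above 1000 FPKM falls were more frequent under each of them, with 7 and 19, 7 and 14, and 8 and 16. Setting equal the summed FPKM of all but the onset genes gave 340 rises and 123 falls from 10 to 100 FPKM, 59 and 55 from 100 to 1000 FPKM, and 8 and 14 above. Over all levels, median scaling gave 650 rises and 572 falls (46.8% lower, against 61.9% as deposited), and quantile normalization 683 and 541 (44.2% lower). Equal summed FPKM gave 793 and 465 (37.0% lower).

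How far the third adult library moved was read from genes called in a fit without it. Its values still counted in the filter on low levels, which used all 9 libraries. Position is given as a percentage, where 0 is the 5-week mean and 100 the mean of the other two adult libraries on the log2 scale. Of 1305 genes called lower without it, the third library had a median position of 52.9% (interquartile range 30.8 to 75.01%). It lay inside the range of the 5-week libraries for 196 of these (15.0%) and on their far side for 48. The first library, treated the same way, had a median position of 124% over 604 falls, with 3 inside the 5-week range, and the second 100.4% over 725 falls, with 5. For the first and the second library the calls and the mark of 100 drew on the third, so the positions do not share a reference. For rises the medians were 75.01%, 105% and 80.3% for the first, the second and the third library.

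Part of that contrast went with the level of the whole library. After median scaling the positions of the first and second libraries were 97.4% and 106% for rises and 100.1% and 98.1% for falls. Those of the third were 67.1% over 785 rises and 73.5% over 680 falls, and it lay inside the 5-week range for 65 and 56 of them. By these medians the third library lay nearer to 5 weeks than the other adult libraries in both directions after median scaling. As deposited it did so for falls only, since the first library had the lowest median for rises. On both scales it lay past the 5-week range toward the adult side for most genes. Each library was set against the same 5-week libraries, and the positions of the 3 libraries were compared without a test.

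**Figure D4:**
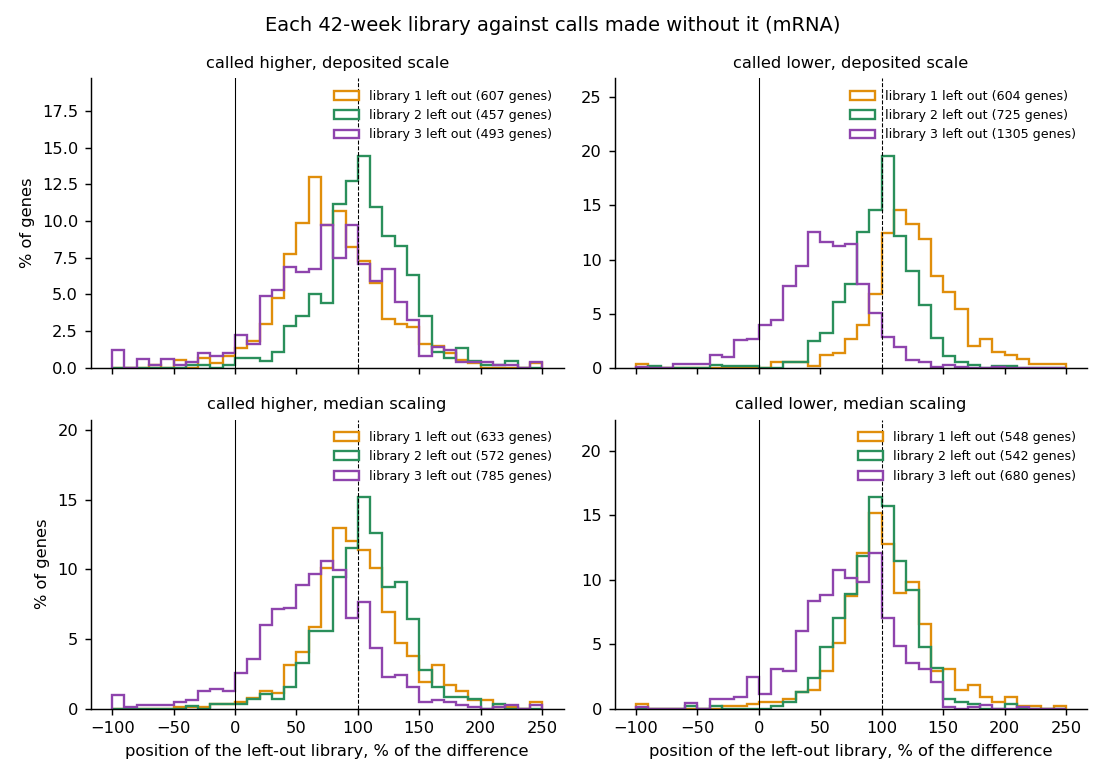
Position of each left-out 42-week library among mRNAs called without it, in percent of the log2 difference between the 5-week mean (solid line, 0) and the mean of the other two 42-week libraries (dashed line, 100); the y axis is the percent of the genes named in each legend, and values beyond -100 or 250 are drawn at the edge bins. The upper panels use the deposited scale and the lower panels median scaling. The purple line of the third library lies left of the others in the falls, with a median of 52.9%, and in both lower panels, with medians of 67.1% and 73.5%.

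Among called mRNAs the adult libraries were not ordered alike in rises and falls. Of all 497 rises the third library was the lowest adult value in 203 and the first in 215, and after median scaling in 303 and 122. Of all 806 falls the third was the highest in 620, and in 397 after median scaling. Of 91 rises with a log2 difference of at least 2, the third library was the lowest adult value in 63, and in 70 after median scaling. Of 93 falls of that size it was the highest adult value in 68, and in 55 after median scaling. The first library was the lowest in 67 of these falls, and in 46 after median scaling. As deposited, the median over all tested genes was highest in the third adult library and lowest in the first, which favours this order for any gene. The same counts were not made over all tested genes. They therefore do not show that the order is particular to called genes.

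A smaller share of the lncRNAs was called, with rises and falls in nearly equal number. Of 2213 tested lncRNAs, 40 were called higher (1.81%) and 38 lower (1.72%), together 3.52%. Without the third 42-week library 50 were higher and 48 lower. By the adjusted p alone 276 lncRNAs (12.5%) passed. The libraries did not overlap for 330 lncRNAs higher at 42 weeks (14.9%) and 363 lower (16.4%). With the offset of 1 FPKM, which holds down the differences of low transcripts, no rise and 1 fall reached a log2 difference of 3. At 0.1 FPKM in its place, 144 lncRNAs were called higher and 149 lower, and 781 and 1271 mRNAs. The tables were tested apart and their filters differ, and most lncRNAs are low. Of the 1697 lncRNAs with a mean under 1 FPKM over the 6 libraries 0.766% were called, against 12.2% of the 499 from 1 to 10 FPKM. In that same range of level, 9.47% of the mRNAs were called. The shares of the 2 tables were not tested against each other.

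TU45477 was the only lncRNA to go from a mean under 0.5 FPKM to at least 5 FPKM. It had 0.485, 0.567 and 0.00671 FPKM at 5 weeks and 8.40, 10.25 and 7.14 FPKM at 42 weeks. All adult libraries were far above the 5-week ones, and the third was the lowest of them by a small margin (log2 difference 2.84 ± 0.21, limma adjusted p = 5.1e-05). With an offset of 0.1 FPKM in place of 1 its log2 difference was 4.63. Without the third 42-week library 2 lncRNAs met that description, and without the third 5-week library 0 did. TU11915 had 3.32, 2.19 and 2.27 FPKM at 5 weeks and 9.90, 15.0 and 23.1 FPKM at 42 weeks. The third adult library was the highest, and the log2 difference was 2.18 ± 0.27 (limma adjusted p = 0.0013). In the embryo it had 0.133 ± 0.050 FPKM (SD, n = 3).

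Of the falls, TU64731 had 68.9, 58.8 and 129 FPKM at 5 weeks and 15.8, 29.1 and 0.287 FPKM at 42 weeks. It was the most abundant lncRNA among the falls shown, and its size rested on the third adult library. The log2 difference was -3.23 ± 0.91 (limma adjusted p = 0.043), and -1.86 without that library (adjusted p = 0.020). The adjusted p ranged from 0.020 to 0.38 over the settings run, and its call was lost in 11 of them. TU17917 had 13.3, 6.64 and 4.44 FPKM at 5 weeks and 1.05, 0.158 and 1.48 FPKM at 42 weeks (log2 difference -2.22 ± 0.42, limma adjusted p = 0.0082). The call held in all settings but the test against a 1.5-fold change. The fall in place 3 had the smallest SE of the 4 largest and went from 2.90, 2.50 and 3.19 FPKM to 0.00876, 0.179 and 0.156 FPKM (log2 difference -1.79 ± 0.13, limma adjusted p = 5.1e-05).

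**Figure D5:**
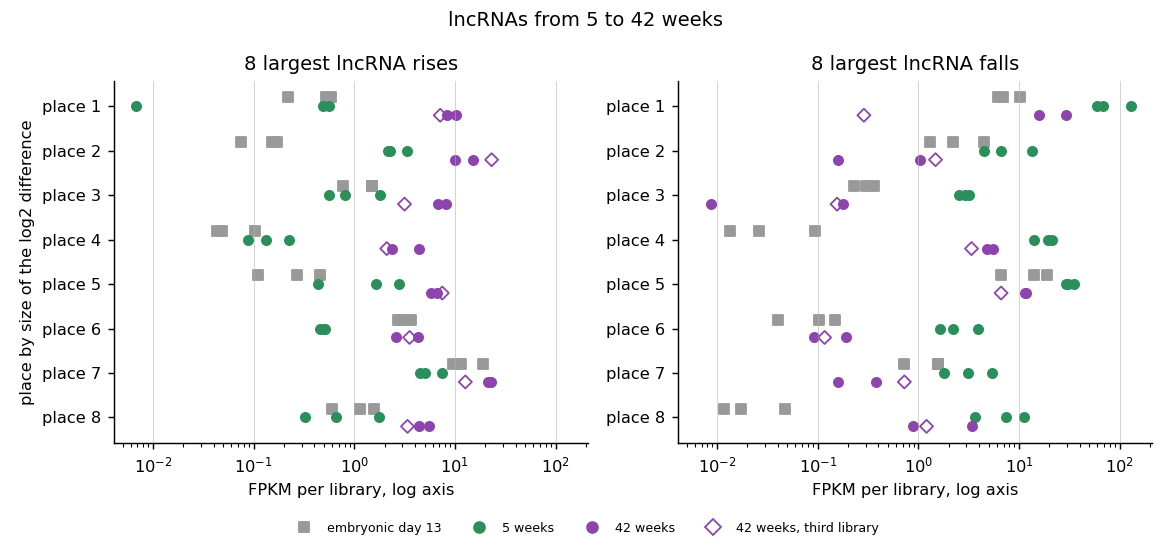
FPKM in each library (log axis) for the 8 called lncRNAs with the largest log2 rise (left) and fall (right) among those with libraries that do not overlap and a mean of at least 1 FPKM at the higher age. Symbols are as for the mRNA plots. Adult and 5-week points are separate in all 16 rows, and the open diamond of the third 42-week library lies far from the other adult points at place 1 of the falls, at 0.287 FPKM.

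Low thresholds of level were crossed in both directions among lncRNAs, and at the narrowest gap most of the crossings were not called. From a mean under 0.5 FPKM at 5 weeks, 102 reached at least 1 FPKM at 42 weeks, of which 25 were called higher, and 61 went the other way, of which 13 were called lower. Fewer crossed a wider gap. From under 0.5 FPKM, 12 reached at least 2 FPKM at 42 weeks, of which 9 were called higher. From at least 2 FPKM, 11 went to under 0.5, of which 8 were called lower. Of all tested lncRNAs 1.81% were called higher and 1.72% lower. The crossings were picked on the libraries that gave the calls. These counts were not repeated without the third 42-week library or after scaling. The 40 called higher took 1.21% ± 0.12 of the lncRNA signal at 5 weeks and 5.74% ± 0.66 in the adult (SD, n = 3 each). The 38 called lower went from 9.82% ± 1.71 to 2.44% ± 0.67. The shares of the adult libraries were closer to each other here than for the mRNA rises, which held 35.7%, 31.7% and 12.5%. Of the lncRNAs averaging 10 FPKM or more at an age, 9 kept that level at both ages, 9 had it at 5 weeks alone and 6 at 42 weeks alone. Of the called lncRNAs, 24 of the 40 rises and 16 of the 38 falls kept their call when each of the 6 libraries was left out in turn, and of the called mRNAs 329 of 497 and 498 of 806 did.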

How the data were processed

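Liver RNA of 9 chicken libraries was measured by RNA sequencing. The submitters' processing notes name Cufflinks 2.2.1, StringTie 1.3.3, HISAT and DESeq2 without saying what each did. The sources used here do not name the build or the annotation. The authors deposited log2 values of FPKM, 1 table for 13949 mRNAs and 1 for 4127 lncRNAs. They were read as log2(FPKM + 1), since 100% of 5047 low mRNA values and 99.9% of 4467 low lncRNA values then become whole millionths of an FPKM within 0.02 of a millionth. In a search for the step of 1 read, the largest cluster of ratios within 0.01 (log2) between 2 libraries held 4 of 30 low mRNAs and 3 of 34 low lncRNAs, so no read counts were recovered, and the spread between libraries is the only measure of precision. No pair of libraries had identical values (0 pairs), and 0 further columns were left aside.

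Limma 3.58.1 in R 4.3.3 fitted 1 mean per age to all 9 libraries with a mean-variance trend, so SEs pool the spread of all 3 ages. Features were tested if 3 or more libraries had 1 FPKM (mRNAs) or 0.5 FPKM (lncRNAs). P-values are two-sided. On simulated data with 100 log2 changes of 1.5 and 100 of 3, 85 and 100 were called among 11512 mRNAs (4 false calls) and 95 and 99 among 2213 lncRNAs (0 false calls). The simulated noise was independent between features, with no library that stood apart and no shift of a whole library. These rates may therefore not hold for the deposited data. Features were placed by absolute log2 difference among called ones with no overlap of libraries, given a mean at the higher age of 10 FPKM (mRNA) or 1 FPKM (lncRNA) or more. Identifiers are printed for the first 2 per direction and table. Others are given by place, and gene lists by symbol were not used. The comparison, lists and thresholds were chosen with earlier results of these data known. Alternatives covered scaling, filters, offset, variance model, array weights, the libraries in the fit, a replicate block, the call rule and leaving out each library. Other tools were Python 3.11.15 with pandas 2.3.3 and scipy 1.17.1.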

Additional observations from a re-analysis of the deposited data

How the results depend on the processing

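The called counts were 497 higher and 806 lower mRNAs, and 40 and 38 lncRNAs. The adjusted p alone gave 1180 and 2521 mRNAs and 136 and 140 lncRNAs. An offset of 0.1 FPKM gave 781 and 1271, and 144 and 149. A test against a 1.5-fold change gave 220 and 261, and 7 and 3. Chosen after seeing the data, equal summed FPKM gave 793 and 465 mRNAs, and 1035 and 348 when the onset genes were left out of the sum, which moved the median log2 difference to 0.14. Median scaling combined with leaving out the third 42-week library, also chosen later, gave 785 and 680. Leaving out each library gave 457 to 607 rises and 604 to 1305 falls among mRNAs, and 32 to 50 and 26 to 48 among lncRNAs. It gave 6 to 8 onset genes above 100 FPKM, 4 to 5 above 1000 FPKM, and 0 to 2 onset lncRNAs. The share of summed FPKM at 42 weeks was then 7.12 to 12.3% for onset genes, 22.1 to 33.7% for rises and 10.3 to 12.4% for falls. The 4 named mRNAs and the other 5 onset genes kept their direction and call in all settings, as did TU45477 and TU11915. The cause of these shifts was not tested. Same-numbered libraries of the 2 ages had correlations of deviations of -0.028 to 0.033 for mRNAs and 0.043 to 0.105 for lncRNAs. These values are low, but each lncRNA library correlated best with its own number. Whether the numbers pair the libraries is therefore not known. With the replicate number as a block, 499 mRNAs were higher and 815 lower, and 41 and 40 lncRNAs. The read depth behind a low FPKM is unknown, which limits what an onset from near 0 can show.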

Other observations

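Transcripts that changed after 5 weeks had varied levels in the embryo. Of the 497 mRNAs called higher at 42 weeks, the embryonic mean lay between the 5-week and 42-week means in 231, below both in 137 and above both in 129. Of the 806 called lower, it lay above both in 393 (48.8%), between them in 286 and below both in 127. For the 10209 mRNAs not called, it lay above both in 68.7%, between them in 14.1% and below both in 17.2%. Among the 40 lncRNAs called higher, 24 had an embryonic mean between the later ages, 10 below both and 6 above both, and among the 38 called lower the numbers were 19, 11 and 8. For the 2135 lncRNAs not called the shares were 24.6%, 26.5% and 48.9%. These counts share the 5-week and 42-week libraries with the calls and are given as a description. They use FPKM as deposited and were not repeated after scaling. The median over tested mRNAs was 7.97 to 8.82 FPKM in the embryonic libraries, 5.39 to 6.33 at 5 weeks and 4.30 to 6.25 at 42 weeks. Called features also differ by at least 1 (log2) between the later ages by rule, which leaves more room between the means.

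The spread of mRNAs between adult libraries was smallest with the third one left out, by a margin that depended on scaling. Over tested genes the median SD between libraries was 0.19 on the log2 scale at 5 weeks and 0.29 at 42 weeks, and 69.9% of genes had the larger SD at 42 weeks. After median scaling these were 0.17 and 0.21, with 60.3%. Without the third library the median SD of the other two adult libraries was 0.16 as deposited, against 0.25 without the first and 0.33 without the second. After median scaling these were 0.14, 0.19 and 0.20. An SD over 2 libraries is not comparable with one over 3. For lncRNAs the medians were 0.17 at 5 weeks and 0.19 at 42 weeks.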
